A study of Homo sapiens with 9 samples.

Results

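The genes described here are 10 direct transcriptional targets of p53: CDKN1A, MDM2, BTG2, GDF15, SESN1, TP53I3, FAS, BBC3, ZMAT3 and FDXR. The list was made by name, with no measured value in its rule, and all 10 were found among the 57796 gene symbols that carried a transcript in the libraries. The samples were MCF10A-YAP cells, a line made from the immortalised, non-transformed human breast epithelial line MCF10A by overexpression of constitutively active YAP, the transcriptional co-activator of the Hippo pathway. Each population had received a lentiviral CRISPR vector and had been kept under antibiotic selection: TRAM2-KO1 and TRAM2-KO2 carried guides against TRAM2, a gene of the translocation machinery of the endoplasmic reticulum, and the control carried a non-targeting guide. All 3 groups therefore shared the YAP transgene, the vector and the selection, and no library without a vector was analysed here. Each group held 3 poly(A) RNA-seq libraries, A, B and C. The sources describe selection of the transduced cells and no step of cloning, and the labels do not say whether the letters mark separate cultures, so p-values measure the spread between these libraries, which may be technical. In such bulk populations, fewer cells expressing a gene and less RNA per cell cannot be told apart.

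p53 is a transcription factor that accumulates when DNA is damaged, among other stresses, because MDM2, the ubiquitin ligase that otherwise marks it for degradation, loses its hold. It then switches on genes that halt the cell cycle (CDKN1A, BTG2) or start cell death (BBC3, FAS). Others change redox and growth signalling (TP53I3, SESN1, FDXR, GDF15), encode an RNA-binding protein (ZMAT3) or restrain p53 itself (MDM2). A double-strand break made by Cas9 is known as one such signal in cells with a working p53 gene. Comparing each TRAM2 guide with the non-targeting guide asks how the transcripts of these genes stood in populations grown on after Cas9 cutting. The study reported a partial knockout of TRAM2, from DNA mutation and western blotting, so cells with intact TRAM2 may be present. The labels give neither the share of cut cells in these libraries nor the time from cut to harvest.

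Both guides target TRAM2 on chromosome 6. The site of the TRAM2-KO2 guide is shown because such a site is what separated an edited population from the control. It is given on the plus strand of GRCh37, with the protospacer in lower case and the PAM, the motif next to it that Cas9 needs, in capitals.
TRAM2-KO2: gtcaacagaatactcacgggAGG
The TRAM2-KO2 protospacer lay at chr6:52374309-52374328, with 3 bases inside exon 5 and the rest in the adjoining intron. With up to 3 mismatches and the same type of PAM, this guide had 3 other sites in the genome. None of these other sites lay within 1 Mb of a p53 target gene of the list, and the nearest of them was 39.0 Mb away. The TRAM2 site itself was nearer, as CDKN1A and SESN1 also lie on chromosome 6. CDKN1A, the closer of these genes, was 15719195 bases from it. TRAM2 transcripts were at 219, 210 and 203 CPM (reads scaled to library size, with TMM factors) in TRAM2-KO1 libraries A, B and C and at 216, 212 and 210 CPM in TRAM2-KO2 libraries, against 481, 464 and 475 CPM in control libraries. The log2 fold change was -1.17 (SE 0.03) for TRAM2-KO1 and -1.16 (SE 0.03) for TRAM2-KO2, with adjusted p = 4.41e-08 and 4.19e-08 in edgeR's quasi-likelihood test.

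Short stretches that resemble the p53 response element, a pair of 10-base half-sites, were looked for near the starts of the listed genes. The windows were the RefSeq promoters (GRCh38.p14), 300 bases each, with 250 bases before and 50 after a start. A match allowed at most 3 mismatches of 20 letters, no spacer, and kept the central C and G of both half-sites. The element reads the same on both strands, so 1 strand was searched. Windows of 5 of the 10 genes held a match, as did 1.12% of all 35116 windows and 1.37% of all 27305 genes with a window. The matches are shown so that the letters can be seen beside the values of their genes. Capitals mark the 20 letters of the element, with up to 5 bases on either side in lower case, 5′ to 3′ on the strand of the gene.
MDM2: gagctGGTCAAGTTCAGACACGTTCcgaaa
FAS: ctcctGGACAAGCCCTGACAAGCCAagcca
SESN1: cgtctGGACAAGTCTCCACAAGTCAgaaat
GDF15: tgcacAGCCATGCCCGGGCAAGAACtc
FDXR: ggcccGGGCAGGAGCGGGCTTGCCCtgcgg
Placed on GRCh37 by their sequence, the elements lay at chr12:69202703-69202722 (MDM2), chr10:90751066-90751085 (FAS), chr6:109330221-109330240 (SESN1), chr19:18496996-18497015 (GDF15) and chr17:72869121-72869140 (FDXR). The MDM2 and FAS stretches had 2 mismatches and the other three had 3. The MDM2 stretch lay inside the gene, 94 bases before the start of transcripts that begin downstream of the first exon. A match is a description of the letters and not of binding, and a window without a match says nothing of sites elsewhere: the windows of CDKN1A, BTG2, TP53I3, BBC3 and ZMAT3 held none.

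The libraries held 21745712 to 27563287 estimated reads, and 15109 genes passed the filter on low counts, all 10 listed genes among them. CDKN2A, which encodes an inhibitor of MDM2 and is known to be deleted in MCF10A, had 0 reads in all 9 libraries, as had its neighbour CDKN2B. These were singled out after their values were seen. Of the list of basal epithelial markers, which also held the general epithelial gene CDH1, 6 of 7 genes passed the filter. Their summed level with that of the remaining gene was 2909 to 3119 CPM in TRAM2-KO1 and 3461 to 3541 CPM in TRAM2-KO2, against 3151 to 3280 CPM in the control. TP63, the remaining gene of that list, had at most 3 reads in a library. All 5 luminal markers passed the filter, with a summed level of 1877 to 2003 CPM in TRAM2-KO1 and 1998 to 2140 CPM in TRAM2-KO2, against 1907 to 1963 CPM in the control. The fibroblast list reached 2.40 to 3.43 CPM in TRAM2-KO1 and 2.55 to 2.93 CPM in TRAM2-KO2, against 2.46 to 3.55 CPM in the control. The leukocyte and endothelial lists each stayed below 1 CPM in all 9 libraries. The part of these marker levels in the results was not tested. Libraries B and C of TRAM2-KO1 had the lowest correlations with GC content. Across genes, the deviation of a library from the mean of all 9 had a rank correlation with GC content of -0.53 in TRAM2-KO1 B and -0.36 in TRAM2-KO1 C. The other 7 libraries lay between -0.09 and 0.40, with the highest value in TRAM2-KO2 A, larger in size than that of TRAM2-KO1 C. Genes are not independent replicates, so these correlations describe the libraries only. Results of TRAM2-KO1 are therefore also given after removal of the per-library GC trend and with library A as the only TRAM2-KO1 library.

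In neither edited population did any of the 10 p53 targets rise past the test. In TRAM2-KO1, 0 of the 10 passed the test, edgeR's quasi-likelihood test with Benjamini-Hochberg adjustment at 0.05 over all 15109 genes. In that comparison 0.761% of all genes rose and 2.2% fell. DESeq2 called 0 as well, and 2 genes, CDKN1A and BTG2, had an unadjusted edgeR p under 0.05. In TRAM2-KO2, 1 of the 10 passed: BTG2 fell, and 0 rose, where 1.75% of all genes rose and 2.5% fell. Here 3 genes had an unadjusted p under 0.05 (BTG2, CDKN1A and TP53I3), and DESeq2 called those same 3, with BTG2 and CDKN1A lower, where it called 2.67% of all genes lower, and TP53I3 higher, where it called 2.19% higher. For the mean of both guides, BTG2 was again the only one of the 10 to pass, against 1.34% of all genes that rose and 2.53% that fell. The median log2 fold change of the 10 was -0.05 in TRAM2-KO1, -0.04 in TRAM2-KO2 and -0.06 for the mean of both guides, beside 0.01, -0.00 and -0.00 over all genes tested. No gene of the list passed the test beyond 0.5 on the log2 scale, the limit of effect size that the study used. The comparisons with the control share its 3 libraries.

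**Figure D1:**
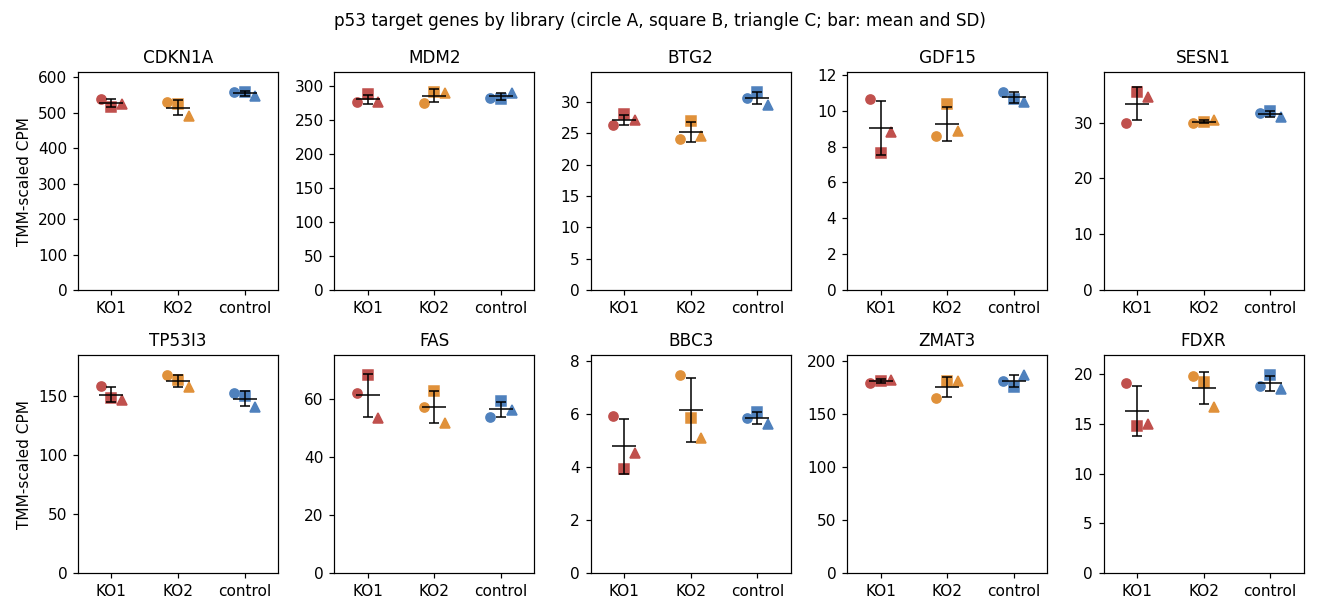
TMM-scaled CPM (y axis, from 0) of the 10 p53 target genes in each library of TRAM2-KO1, TRAM2-KO2 and control, with circles for library A, squares for B and triangles for C, and bars for the mean and SD of 3 libraries. BTG2 is lower in all 6 edited libraries (24.1 to 27.99 CPM) than in the control libraries (29.5 to 31.6 CPM), while MDM2 and ZMAT3 overlap in all groups.

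The 95% intervals of the listed genes give the range of each change in the main fit, from the spread between these libraries. In TRAM2-KO1 the highest upper bound of their 95% intervals was 0.32 on the log2 scale, that of FAS, a rise of 24.4%. In TRAM2-KO2 it was 0.44, that of BBC3, a rise of 35.5%. For the most abundant targets the intervals were narrow: MDM2 changed by -1.66% in TRAM2-KO1 (95% interval -6.48% to 3.41%) and by 0.195% in TRAM2-KO2 (95% interval -4.71% to 5.35%). These intervals hold for the fit on read counts, and with length offsets the log2 fold change of MDM2 in TRAM2-KO1 was 0.083 (adjusted p = 0.648), above the upper bound given here. After removal of the GC trend, TP53I3 in TRAM2-KO1 was at 0.16 (edgeR, adjusted p = 0.0394), above its upper bound of 0.13 in the main fit. CDKN1A in TRAM2-KO1 was then at 0.02, above its upper bound of -0.0001. The intervals therefore do not limit the rise that another processing could give.

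**Figure D2:**
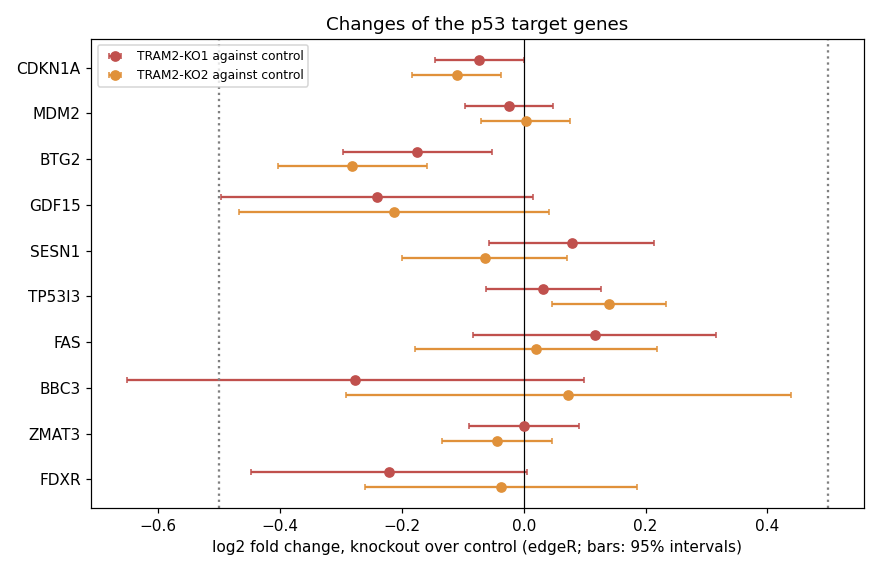
Log2 fold changes of the 10 genes (x axis, knockout over control) from edgeR, with 95% intervals as bars, TRAM2-KO1 above TRAM2-KO2 for each gene. Dotted lines mark 0.5 in either direction, and the point farthest from 0 is that of BTG2 in TRAM2-KO2 at -0.28.

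Per length of transcript, the order of the levels was nearly the same in all groups. In TPM, the quantifier's unit of abundance that allows for transcript length, CDKN1A was highest, at 304 ± 1.15 in TRAM2-KO1 and 301 ± 12.2 in TRAM2-KO2, against 320 ± 2.41 in the control (SD, n = 3 each). MDM2 followed, at 151 ± 13.02 TPM in TRAM2-KO1 and 149 ± 8.94 TPM in TRAM2-KO2, against 144 ± 8.37 TPM in the control. Next came TP53I3, whose range overlapped that of MDM2 in TRAM2-KO2 and not in the other groups, then FAS at 41.3 to 45.2 and ZMAT3 at 25.2 to 26.3 TPM as group means. SESN1 and FDXR overlapped in every group, as did BTG2 and GDF15. BBC3 was lowest, at 4.78 ± 1.04 TPM in TRAM2-KO1 and 6.14 ± 1.18 TPM in TRAM2-KO2, against 5.39 ± 0.24 TPM in the control.

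Among the cell cycle inhibitors, CDKN1A (chr6:36644237-36655114), which encodes p21, the inhibitor of cyclin-dependent kinases, had lower values in edited cells that did not pass the test. It was at 539, 517 and 526 CPM in TRAM2-KO1 libraries A, B and C and at 529, 523 and 490 CPM in TRAM2-KO2 libraries, against 558, 559 and 547 CPM in control libraries. All 6 edited libraries lay below all control libraries. The log2 fold change was -0.07 (SE 0.03, adjusted p = 0.268) in TRAM2-KO1 and -0.11 (SE 0.03, adjusted p = 0.111) in TRAM2-KO2 by edgeR, a change of -7.33% in TRAM2-KO2. DESeq2 gave -0.11 with adjusted p = 0.0415 for TRAM2-KO2. With the GC trend removed, the TRAM2-KO1 value turned to 0.02, while that of TRAM2-KO2 stayed at -0.10. In that fit TRAM2-KO2 was lower than TRAM2-KO1 by a log2 difference of -0.13 (adjusted p = 0.0347), where the uncorrected difference was -0.04 (adjusted p = 0.576).

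BTG2 (chr1:203274619-203278730), which encodes an antiproliferative protein of the BTG/TOB family, was the one listed gene that fell. It was at 26.3, 27.99 and 27.1 CPM in TRAM2-KO1 libraries, and 24.1, 26.9 and 24.5 CPM in TRAM2-KO2 libraries, against 30.6, 31.6 and 29.5 CPM in control libraries, with 606 to 771 reads behind each value. No edited library reached the lowest control. The log2 fold change was -0.28 (SE 0.06, adjusted p = 0.0171) in TRAM2-KO2, -0.17 (SE 0.06, adjusted p = 0.133) in TRAM2-KO1 and -0.23 (SE 0.05, adjusted p = 0.0237) for the mean of both guides. The GC content of its transcript, 50.5%, was in the middle of the list, and its log2 fold change with the GC trend removed was -0.28 in TRAM2-KO2 and -0.18 in TRAM2-KO1. Its direction held in all 20 alternatives of the TRAM2-KO2 comparison, from -0.33 to -0.22, and it passed the test in 14 of them. The call was lost without control A (adjusted p = 0.0675), control B (0.0801), TRAM2-KO2 A (0.0771) or TRAM2-KO2 C (0.0760). It was also lost with offsets for transcript length (0.2999) and with limma on TPM (0.460). In the fits that lost it, 0.371% to 1.45% of all genes fell, against 2.5% in the main fit. For the mean of both guides, the call was lost without control A (0.101), B (0.123) or C (0.0546) and without TRAM2-KO2 A (0.0539) or C (0.0592). In these left-out fits 1.45% to 2.1% of all genes fell, against 2.53% in the main fit.

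Counted by overlap alone, 2 of the 10 genes, CDKN1A and BTG2, lay wholly below the control in TRAM2-KO1, where 11.1% of all genes did so, and 0 lay wholly above, against 11.9%. In TRAM2-KO2, 4 lay wholly below (CDKN1A, BTG2, GDF15 and SESN1), against 12.3% of all genes, and 1 wholly above (TP53I3), against 11.3%. Over all 6 edited libraries, 2 lay wholly below the control, against 4.72% of all genes, and 0 above, against 4.43%. The genes below the control were those just described, with GDF15 and SESN1 added in TRAM2-KO2 only.

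Of the brake on p53, MDM2 (chr12:69201957-69239324) was at 276, 287 and 275 CPM in TRAM2-KO1 libraries and 274, 291 and 290 CPM in TRAM2-KO2 libraries, against 282, 281 and 290 CPM in control libraries. The groups overlapped, and the log2 fold change was -0.02 (SE 0.03) in TRAM2-KO1 and 0.00 (SE 0.03) in TRAM2-KO2, with an adjusted p of 0.739 and 0.988. In TRAM2-KO1 the sign turned with length offsets (0.083) and with limma on TPM (0.063, adjusted p = 0.794), without passing the test. MDM2 has a start at the head of the gene and a further one inside it, next to the element shown above, which p53 is known to use. The 6 transcripts that start within 500 bases of the head of the gene and the 25 that start 500 to 3000 bases downstream were summed. The downstream ones took 30.4%, 28.5% and 32.7% of the reads of both classes in TRAM2-KO1 libraries and 32.3%, 27.3% and 31.8% in TRAM2-KO2 libraries, against 29.9%, 31.1% and 30.4% in control libraries. The group means were 30.5 ± 2.11% in TRAM2-KO1 and 30.5 ± 2.72% in TRAM2-KO2, against 30.4 ± 0.60% in the control (SD, n = 3 each). The groups overlapped, and a test of this share was not run. Reads shared by several transcripts were divided by the quantifier, so these shares are estimates.

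The genes of cell death gave no call. FAS (chr10:90750414-90775542), a death receptor, was at 61.9, 68.1 and 53.2 CPM in TRAM2-KO1 libraries and 57.2, 62.6 and 51.6 CPM in TRAM2-KO2 libraries, against 53.8, 59.1 and 55.9 CPM in control libraries. All groups overlapped, with a log2 fold change of 0.12 (SE 0.09, adjusted p = 0.527) in TRAM2-KO1 and 0.02 (SE 0.09, adjusted p = 0.963) in TRAM2-KO2. BBC3 (chr19:47724079-47736023), which encodes PUMA, a BH3-only activator of apoptosis, was the scarcest member, with 85 to 200 reads in a library. It was at 5.93, 3.93 and 4.51 CPM in TRAM2-KO1 libraries and 7.47, 5.85 and 5.11 CPM in TRAM2-KO2 libraries, against 5.84, 6.07 and 5.61 CPM in control libraries. The TRAM2-KO1 libraries B and C were low and library A was not, and the log2 fold change of -0.28 (SE 0.17, adjusted p = 0.411) turned to 0.07 with the GC trend removed and to 0.02 with library A alone. In TRAM2-KO2 it was 0.07 (SE 0.16, adjusted p = 0.920).

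TP53I3 (chr2:24300303-24308731), which encodes a quinone oxidoreductase linked to oxidative stress, had higher values in TRAM2-KO2 that did not pass the test. It was at 158, 148 and 146 CPM in TRAM2-KO1 libraries and 168, 163 and 158 CPM in TRAM2-KO2 libraries, against 152, 150 and 141 CPM in control libraries. All TRAM2-KO2 libraries lay above the control libraries, and the TRAM2-KO1 libraries overlapped with them. On the log2 scale the change was 0.14 (SE 0.04, adjusted p = 0.117) in TRAM2-KO2 and 0.03 (SE 0.04, adjusted p = 0.737) in TRAM2-KO1. With the GC trend removed both passed, at 0.15 (adjusted p = 0.0279) in TRAM2-KO2 and 0.16 (adjusted p = 0.0394) in TRAM2-KO1. The difference between the guides was 0.11 (SE 0.04, adjusted p = 0.198) and became -0.01 (adjusted p = 0.960) with the GC trend removed. The upper bound of the uncorrected interval was 17.6% in TRAM2-KO2.

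FDXR (chr17:72858619-72869156), the mitochondrial ferredoxin reductase, was at 19.1, 14.7 and 15.0 CPM in TRAM2-KO1 libraries and 19.8, 19.2 and 16.7 CPM in TRAM2-KO2 libraries, against 18.8, 19.9 and 18.4 CPM in control libraries. Only TRAM2-KO1 B and C and TRAM2-KO2 C were below the control range. Its log2 fold change was -0.22 (SE 0.10, adjusted p = 0.280) in TRAM2-KO1 and -0.04 (SE 0.10, adjusted p = 0.939) in TRAM2-KO2. GDF15 (chr19:18485541-18499986), a secreted stress cytokine of the TGF-β superfamily, was at 10.6, 7.67 and 8.83 CPM in TRAM2-KO1 libraries and 8.59, 10.4 and 8.86 CPM in TRAM2-KO2 libraries, against 11.1, 10.7 and 10.5 CPM in control libraries. For GDF15 the log2 fold change was -0.24 (SE 0.12, adjusted p = 0.297) in TRAM2-KO1 and -0.21 (SE 0.11, adjusted p = 0.447) in TRAM2-KO2. With library A alone, the TRAM2-KO1 values were 0.00 for FDXR and -0.02 for GDF15.

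SESN1 (chr6:109305512-109416049), which encodes sestrin 1, a stress-induced inhibitor of mTORC1 signalling, was at 29.95, 35.5 and 34.6 CPM in TRAM2-KO1 libraries and 29.8, 30.2 and 30.5 CPM in TRAM2-KO2 libraries, against 31.7, 32.1 and 30.9 CPM in control libraries. TRAM2-KO1 libraries B and C were high and library A was low. SESN1 changed on the log2 scale by 0.08 (SE 0.06, adjusted p = 0.531) in TRAM2-KO1 and by -0.06 (SE 0.06, adjusted p = 0.735) in TRAM2-KO2, and the difference of the guides was -0.14 (SE 0.06, adjusted p = 0.229). ZMAT3 (chr3:178677909-178790003), a zinc finger RNA-binding protein, was at 179, 182 and 183 CPM in TRAM2-KO1 libraries and 165, 181 and 181 CPM in TRAM2-KO2 libraries, against 181, 175 and 187 CPM in control libraries. The groups overlapped, with a log2 fold change of -0.00 (SE 0.04, adjusted p = 0.998) in TRAM2-KO1 and -0.04 (SE 0.04, adjusted p = 0.722) in TRAM2-KO2.

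In FDXR, GDF15 and BBC3 the TRAM2-KO1 libraries B and C lay below library A, and in SESN1 they lay above it. The longest transcripts of FDXR, GDF15 and BBC3 had a GC content of 61.8%, 64.1% and 69.7%, the highest of the list. Those of ZMAT3, FAS, MDM2 and SESN1 lay between 38.2% and 40.6%. The transcripts with the most reads had 63.5% in FDXR, 62.9% in GDF15, 60.9% in BBC3 and 55.4% in TP53I3. The longest TP53I3 transcript had 59.4%. The GC trend was removed by the values of the longest transcripts, and a removal by those with the most reads was not tested. With the GC trend removed, the TRAM2-KO1 values on the log2 scale were -0.05 for FDXR, -0.02 for GDF15, 0.07 for BBC3 and 0.03 for SESN1. Leaving out TRAM2-KO1 A, whose correlation with GC content was 0.18, 3 of the 10 genes passed the test in TRAM2-KO1, where 3.95% of all genes rose and 8.83% fell in that fit. On the log2 scale FDXR fell (-0.36, adjusted p = 0.0190), GDF15 fell (-0.38, adjusted p = 0.0393) and SESN1 rose (0.15, adjusted p = 0.0481). With library A alone 0 passed. With the GC trend removed TP53I3 alone passed in TRAM2-KO1, where 0.927% of all genes rose and 2.59% fell, and TP53I3 and BTG2 passed in TRAM2-KO2, where 3.5% rose and 3.61% fell. Between the guides, TRAM2-KO2 against TRAM2-KO1, 0 of the 10 passed, where 1.42% of all genes were higher in TRAM2-KO2 and 0.867% were lower. DESeq2 called 0 too, and 2 genes, SESN1 and TP53I3, had an unadjusted edgeR p under 0.05. Without TRAM2-KO1 A, 3 passed between the guides (FDXR and TP53I3 higher in TRAM2-KO2, SESN1 lower), where 8.03% of all genes were higher and 3.97% lower. In the fit with the GC trend removed 1 did, CDKN1A, where 2.45% of all genes were higher and 1.34% lower.

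**Figure D3:**
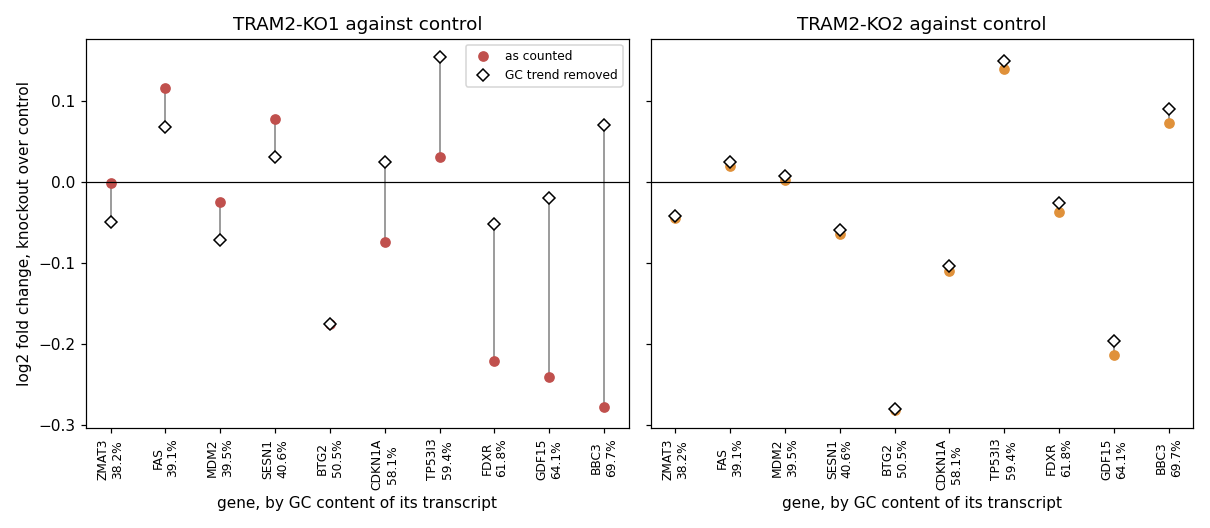
Log2 fold change over control (y axis) of the 10 genes in order of the GC content of their longest transcript, for TRAM2-KO1 on the left and TRAM2-KO2 on the right, as counted (filled circles) and with the per-library GC trend removed (open diamonds). In TRAM2-KO1, BBC3 moves to 0.07 and TP53I3 to 0.16, while in TRAM2-KO2 every gene stays within 0.02 of its uncorrected value.

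The CDKN1A transcripts also separated these libraries. The gene has an upstream start, at the head of the annotated locus, and a downstream start 2254 bases further, used by ENST00000244741, which took 79.9% of its reads over all libraries. Transcripts of the upstream start took 0.110%, 59.2% and 36.6% of CDKN1A reads in TRAM2-KO1 libraries A, B and C and 0.154%, 0.022% and 4.75% in TRAM2-KO2 libraries, against 0.016%, 0.121% and 2.01% in control libraries. The libraries with a high share were TRAM2-KO1 B and C, the same that had the lowest correlations with GC content, and library A of the same guide had almost none. The summed CDKN1A level did not show such a split, at 517 and 526 CPM in TRAM2-KO1 B and C and 539 CPM in A. The shares come from the division of shared reads among transcripts, and the part of base composition in them was not tested. The gene level of CDKN1A is therefore given as the sum over its 8 transcripts.

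**Figure D4:**
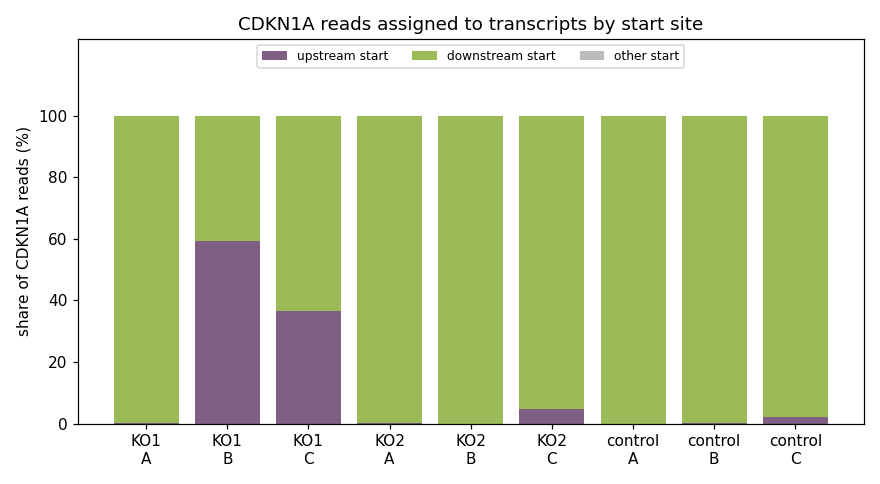
Share of the estimated CDKN1A reads (y axis, percent) given to transcripts of the upstream and the downstream start in each library of TRAM2-KO1, TRAM2-KO2 and control. The upstream class holds 59.2% in TRAM2-KO1 B and 36.6% in TRAM2-KO1 C and at most 4.75% in the other libraries.

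The other genes also drew most reads from 1 or 2 transcripts. SESN1 reads went mainly to an inner start near the element shown above: ENST00000356644 took 73.9% of them over all libraries, with 71.8% to 76.0% in TRAM2-KO1 and 72.1% to 80.8% in TRAM2-KO2, against 69.6% to 74.3% in the control. FAS reads were divided between ENST00000352159 (54.6%) and ENST00000355740 (35.6%), and GDF15 reads between ENST00000252809 (78.0%) and ENST00000595973 (21.9%). BTG2 and ZMAT3 were nearly single-transcript genes, with 97.1% and 94.7% of reads in 1 transcript.

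Beyond the 10, a longer list of 40 p53 targets had 38 tested. In TRAM2-KO1, 2 rose and 0 fell (PERP and TRIM22, TRIM22 named after its value was seen), where 0.761% of all genes rose and 2.2% fell. In TRAM2-KO2, 2 rose and 0 fell (PERP and BTG1), where 1.75% of all genes rose and 2.5% fell. The median log2 fold change was 0.04 in TRAM2-KO1 and -0.02 in TRAM2-KO2, beside 0.01 and -0.00 over all genes. PERP, a desmosome-associated p53 target, was at 232, 243 and 229 CPM in TRAM2-KO1 libraries and 243, 244 and 246 CPM in TRAM2-KO2 libraries, against 202, 203 and 198 CPM in control libraries. All 6 edited libraries exceeded the control, and the log2 fold change for the mean of both guides was 0.25 (SE 0.03, adjusted p = 0.000330). BTG1, an antiproliferative relative of BTG2, was at 39.4, 44.2 and 41.2 CPM in TRAM2-KO1 libraries and 48.1, 45.1 and 45.4 CPM in TRAM2-KO2 libraries, against 37.7, 37.1 and 37.4 CPM in control libraries. Its log2 fold change for the mean of both guides was 0.23 (SE 0.04, adjusted p = 0.0138), opposite in sign to that of BTG2. The BTG1 call was lost without control A (adjusted p = 0.0650), B (0.0813) or C (0.0683) and with length offsets (0.636). GADD45A, which acts in DNA repair and growth arrest, had a log2 fold change of 0.15 (adjusted p = 0.0649) for the same mean, and passed without TRAM2-KO1 A (0.0311) or B (0.0357), with the GC trend removed (0.0322) and in DESeq2 (0.0332). KITLG, the ligand of the KIT receptor, was at 0.13 on the log2 scale (adjusted p = 0.0899) and did not pass. Without TRAM2-KO1 A the TRAM2-KO1 count was 8 (6 rose and 2 fell, where 3.95% of all genes rose and 8.83% fell) and the TRAM2-KO2 count 4 (3 rose and 1 fell, where 2.11% of all genes rose and 2.91% fell). The TRAM2-KO2 count was 5 with the GC trend removed, where 3.5% of all genes rose and 3.61% fell. With length offsets the count was 1 for each guide. Of all genes, 0.106% then rose and 0.635% fell for TRAM2-KO1, while for TRAM2-KO2 0.437% rose and 0.576% fell. Without control A, B or C or TRAM2-KO1 C the TRAM2-KO1 count was 1. In those fits at most 0.279% of all genes rose and at most 1.51% fell for TRAM2-KO1. These counts of 5 and 1 do not separate rises from falls.

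Of the regulators and relatives of p53, 16 of 19 were tested and 0 passed edgeR's test against the control with either guide. The count with an unadjusted p under 0.05 was 3 in TRAM2-KO1 and 0 in TRAM2-KO2, and DESeq2 called 2 in TRAM2-KO1 and 0 in TRAM2-KO2. Of all genes, DESeq2 called 1.79% higher and 4.34% lower in TRAM2-KO1, and 2.19% higher and 2.67% lower in TRAM2-KO2. Without TRAM2-KO1 A, edgeR called 2 in TRAM2-KO1, where 3.95% of all genes rose and 8.83% fell. The BCL2 family and caspases, 15 of 16 tested, gave 0 calls in edgeR with either guide, with 1 gene at an unadjusted p under 0.05 in each. In the main edgeR fit 0.761% of all genes rose and 2.2% fell in TRAM2-KO1, and 1.75% rose and 2.5% fell in TRAM2-KO2.

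The genes that p53 is known to lower through p21 and the DREAM repressor complex, mostly of G2 and mitosis, had 25 of 25 members tested. In TRAM2-KO1, 2 rose (CCNB1 and AURKA) and 1 fell (MCM5), and in TRAM2-KO2, 7 rose and 0 fell. Over all genes 0.761% rose and 2.2% fell in TRAM2-KO1, and 1.75% rose and 2.5% fell in TRAM2-KO2. The median log2 fold change was 0.06 in TRAM2-KO1 and 0.12 in TRAM2-KO2, beside 0.01 and -0.00 over all genes. CCNB1, the mitotic cyclin B1, was at 162, 180 and 167 CPM in TRAM2-KO1 libraries and 190, 188 and 184 CPM in TRAM2-KO2 libraries, against 146, 148 and 147 CPM in control libraries. All edited libraries lay above the control, with a log2 fold change of 0.28 (SE 0.03, adjusted p = 0.000723) for the mean of both guides. On the log2 scale AURKA, a mitotic kinase, was at 0.23 (adjusted p = 0.00108), KIF20A, a kinesin of cytokinesis, at 0.18 (adjusted p = 0.0105) and MCM5, a subunit of the replicative helicase, at -0.17 (adjusted p = 0.0128) for the same mean. The KIF20A call was lost without control A (adjusted p = 0.0973) or C (0.0801), and the MCM5 call without control A (0.0882), B (0.0627) or C (0.0567). Both were lost with length offsets as well (0.454 and 0.429), and the AURKA call was lost with limma on TPM (0.0629). The TRAM2-KO1 count of 3 became 8 without TRAM2-KO1 A and 1 without control A, B or C, and the TRAM2-KO2 count of 7 became 4 without control C or TRAM2-KO2 B. Of all genes, 3.95% rose and 8.83% fell in TRAM2-KO1 without TRAM2-KO1 A. Without control A, B or C at most 0.221% rose and 1.43% fell there. In TRAM2-KO2 0.935% rose and 1.35% fell without control C, and 0.818% and 1.42% without TRAM2-KO2 B. With length offsets the counts were 0 in TRAM2-KO1 and 2 in TRAM2-KO2, and with the GC trend removed they were 3 and 12. These counts do not separate rises from falls. Length offsets left 0.106% of all genes up and 0.635% down for TRAM2-KO1. For TRAM2-KO2 the offsets left 0.437% up and 0.576% down. Removal of the GC trend gave 0.927% up and 2.59% down for TRAM2-KO1, while TRAM2-KO2 had 3.5% up and 3.61% down. The values of the DREAM list stand beside the change of CDKN1A. That change was -4.94% in TRAM2-KO1 and -7.33% in TRAM2-KO2 without passing the test. A relation between the DREAM list and CDKN1A was not tested.

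Of the other cyclins and CDK inhibitors, 11 of 14 were tested. In TRAM2-KO1, 0 passed edgeR's test, with 1 at an unadjusted p under 0.05, and in TRAM2-KO2 CCNE2, cyclin E2, fell (log2 fold change -0.19, adjusted p = 0.0390). Of all genes, 0.761% rose and 2.2% fell in TRAM2-KO1, and 1.75% rose and 2.5% fell in TRAM2-KO2. CDKN1B, which encodes the CDK inhibitor p27, was at -0.17 on the log2 scale (adjusted p = 0.0774) for the mean of both guides, and passed without TRAM2-KO1 A (0.0445). The targets of the stress factor ATF4 changed in both directions. Of 14 tested, 2 rose and 2 fell in TRAM2-KO1 and 3 rose and 2 fell in TRAM2-KO2, beside the same shares of all genes, 0.761% up and 2.2% down in TRAM2-KO1 and 1.75% up and 2.5% down in TRAM2-KO2. On the log2 scale and for the mean of both guides, ATF3, a stress-induced transcription factor, rose by 0.53 (SE 0.08, adjusted p = 0.00385) and SLC7A11, the cystine transporter, by 0.30 (SE 0.04, adjusted p = 0.00234). DDIT4, an inhibitor of mTORC1 signalling, fell by 0.46 (SE 0.05, adjusted p = 0.000330), and PPP1R15A, a regulatory subunit of protein phosphatase 1, rose by 0.25 (SE 0.05, adjusted p = 0.0171). The PPP1R15A call was lost without control A (0.120), B (0.0788) or C (0.120) or TRAM2-KO1 C (0.0535). With length offsets SLC7A11 was at 0.097 (adjusted p = 0.794) and PPP1R15A at 0.25 (adjusted p = 0.0856), and with limma on TPM ATF3 was at 0.67 (adjusted p = 0.0628). The ATF4 count of 4 in TRAM2-KO1 became 1 without control B or TRAM2-KO1 C and 2 without control C, TRAM2-KO2 B or TRAM2-KO2 C. In these fits 0.221% to 0.488% of all genes rose and 1.36% to 1.85% fell for TRAM2-KO1. The count of 5 in TRAM2-KO2 became 3 without control A, B or C, TRAM2-KO2 A or TRAM2-KO2 C. There 0.817% to 0.976% of all genes rose and 1.27% to 1.45% fell for TRAM2-KO2. With length offsets both counts were 1. The offsets left 0.106% of all genes up and 0.635% down for TRAM2-KO1, while TRAM2-KO2 had 0.437% up and 0.576% down.

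**Figure D5:**
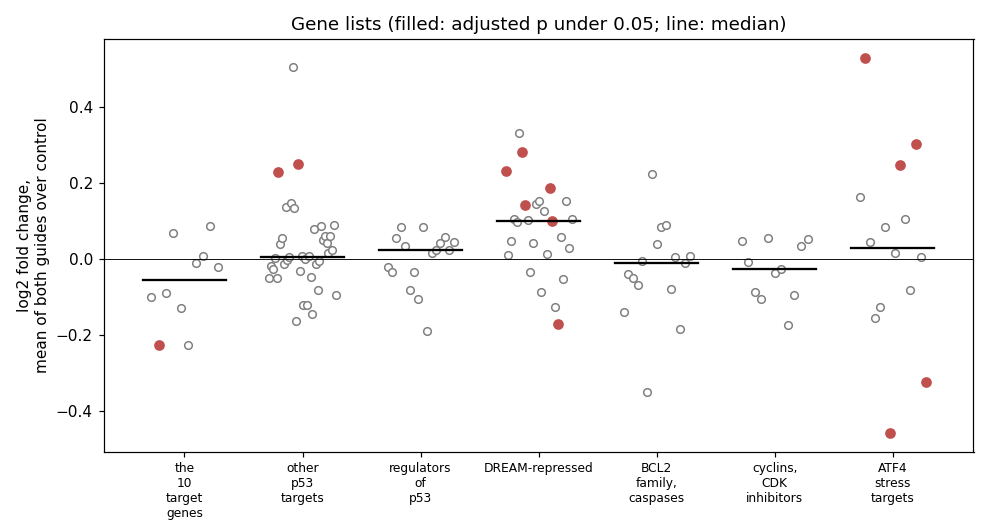
Log2 fold change for the mean of both guides over control (y axis) of each tested gene in the 10 targets and 6 further lists (x axis), with genes past the test filled and black lines at the medians. The median of the 10 targets is -0.06 and BTG2 is its filled point, while in the DREAM list 5 genes rise and 1 falls.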

How the data were processed

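Poly(A) RNA of 9 libraries, 3 for each of TRAM2-KO1, TRAM2-KO2 and control, was sequenced. The authors trimmed reads with cutadapt, and their Salmon runs gave the deposited estimated counts, TPM and effective lengths of each transcript. Neither the versions of these tools nor the transcript release and genome build were given in the sources used here. Transcript IDs were matched to GENCODE v44lift37 (GRCh37), 220336 of 226030, and estimated counts were summed per gene symbol and rounded. edgeR 4.0.16 (filterByExpr with a minimum count of 10, TMM, glmQLFit and glmQLFTest over all 9 libraries) was the main test in R 4.3.3, with Benjamini-Hochberg adjustment at 0.05. It was tested on simulated data. DESeq2 1.42.0 and limma 3.58.1 on log2(TPM + 0.1) served as alternatives, besides filters, single libraries left out, GC and length offsets, protein-coding transcripts only and a replicate block. The study's own limit of effect size was 0.5 on the log2 scale. GC content is that of the longest transcript, and the GC trend was a smooth curve per library. Length offsets used the effective length of each gene in each library, averaged over its transcripts with their TPM as weights. Library totals were 21745712 to 27563287 estimated reads, so that the counting error is widest for BBC3, the scarcest listed gene.

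The listed genes and the other gene lists were chosen with earlier results of these data known. The text names the 10 genes, TRAM2, up to 4 genes of each list by smallest p for the mean of both guides, and transcripts with at least 10% of the reads of a listed gene. TRAM2-KO1 as library A alone, and the naming of TRIM22, CDC20, PLK1, KRT5, RPL11, CDKN2A and CDKN2B, were chosen after the data were seen. Groups follow the labels. The TRAM2-KO2 guide was matched to GRCh37 with up to 3 mismatches. No set test was run. Some items are not reported here, and the gene lists were counted without them.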

Additional observations from a re-analysis of the deposited data

Results flagged for a closer look

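None of the 10 p53 targets passed the edgeR test of TRAM2-KO2 against TRAM2-KO1, where 1.42% of all genes were higher in TRAM2-KO2 and 0.867% lower. Of the other lists 8 genes passed. These lists had 38 other p53 targets, 25 DREAM genes, 16 regulators and 15 genes of the BCL2 family and caspases tested. They also had 14 ATF4 targets, 11 cyclins and CDK inhibitors, and 6 basal, 5 luminal and 3 fibroblast markers tested. In the list of basal epithelial markers, which holds CDH1 though it is not specific to basal cells, all 4 genes that differed were higher in TRAM2-KO2. The log2 difference was 0.55 for CDH1 (E-cadherin; log2 fold change over control 0.14 in TRAM2-KO2 and -0.41 in TRAM2-KO1), 0.48 for KRT14 (0.48 and 0.00), 0.22 for KRT5 and 0.21 for KRT17 (0.27 and 0.07). Among the DREAM genes PLK1 differed by 0.31 and CDC20 by 0.17. The p53 target TRIM22 differed by -0.21 and RPL11, a ribosomal protein that binds MDM2, by -0.17. The part of the GC trend of TRAM2-KO1 B and C in these differences was not tested.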

How the results depend on the processing

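The count of listed genes past the test was recomputed with 1 choice changed at a time. In TRAM2-KO1 (0) it was 1 with the GC trend removed and 0 to 3 with 1 library left out, the 3 arising without TRAM2-KO1 A. Of all genes, 0.927% rose and 2.59% fell with the GC trend removed. With 1 library left out 0.22% to 3.95% rose and 1.36% to 8.83% fell. In TRAM2-KO2 (1) it was 2 with the GC trend removed and with the groups compared alone, 3 with DESeq2, 0 with length offsets, 0 with limma on TPM and 0 to 1 with 1 library left out. Of all genes, 1.75% rose and 2.5% fell in the main fit. The shares were 3.5% and 3.61% with the GC trend removed, and 2.65% and 3.4% with the groups compared alone. They were 2.19% and 2.67% with DESeq2, 0.437% and 0.576% with length offsets, and 0.331% and 0.371% with limma. With 1 library left out 0.817% to 2.21% rose and 1.27% to 2.91% fell. For the mean of both guides (1) it was 2 with the GC trend removed and with DESeq2, 0 with length offsets and with limma on TPM, and 0 to 1 with 1 library left out. Of all genes, 2.34% rose and 3.32% fell with the GC trend removed, and 2.04% and 3.39% with DESeq2. The shares were 0.258% and 0.821% with length offsets, and 0.165% and 0.523% with limma. With 1 library left out 0.389% to 2.32% rose and 1.45% to 4.52% fell. Between the guides (0) it was 1 with the GC trend removed and 0 to 3 with 1 library left out. Of all genes, 2.45% were higher and 1.34% lower in TRAM2-KO2 with the GC trend removed. With 1 library left out 0.539% to 8.03% were higher and 0.156% to 3.97% lower. The causes of these changes were not tested, beyond the loss of a library in each left-out fit.

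Same-letter correlations of deviations from the group means ran from -0.09 to 0.09, and different-letter ones from -0.15 to 0.12. They show no pairing by letter, and cannot tell whether the letters mark shared cultures. With the letter as a replicate block the TRAM2-KO2 count was 2, where 1.52% of all genes rose and 2.24% fell, and the other counts did not change. With the block and the GC trend removed it was 2 in TRAM2-KO2, 2 for the mean and 1 between the guides. The shares of all genes up and down were then 3.16% and 3.3% in TRAM2-KO2, 2.03% and 3.2% for the mean, and 1.95% and 1.01% between the guides.

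Where a sign turned, the turned value was not past the test, and the cause was not tested. With the GC trend removed, CDKN1A (0.025, and 0.024 with the block) and BBC3 (0.071, and 0.066 with the block) turned in TRAM2-KO1, and TP53I3 (-0.0055, and -0.0051 with the block) between the guides. With length offsets and with limma on TPM, MDM2 (0.083 and 0.063), SESN1 (-0.011 and -0.025) and TP53I3 (-0.022 and -0.040) turned in TRAM2-KO1. With TRAM2-KO1 as library A alone, chosen after seeing the data, SESN1 (-0.079), BBC3 (0.019) and FDXR (0.0034) turned in TRAM2-KO1 and SESN1 (0.016) between the guides. With protein-coding transcripts only, FDXR was 0.078 in TRAM2-KO2. With 1 library left out, the range in TRAM2-KO1 was -0.0063 to 0.048 for TP53I3 and -0.032 to 0.018 for ZMAT3. In TRAM2-KO2 it was -0.013 to 0.031 for MDM2, -0.050 to 0.089 for FAS, -0.093 to 0.19 for BBC3 and -0.084 to 0.034 for FDXR. Further turns are given as the main value and the farthest turned value over all alternatives. Between the guides they were GDF15 (0.027, -0.20), FDXR (0.18, -0.039), MDM2 (0.027, -0.057), BTG2 (-0.11, 0.015) and ZMAT3 (-0.044, 0.025). For the mean of both guides they were BBC3 (-0.10, 0.081), MDM2 (-0.011, 0.055), SESN1 (0.0071, -0.14) and ZMAT3 (-0.022, 0.00096). Of the log2 fold changes of single genes, 729 values kept direction and side of the threshold, 38 lost the call, 24 gained it and 31 turned.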
